A study of Homo sapiens with 6 samples.

Results

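The genes described here are the myostatin and activin axis: 10 genes for ligands, receptors and secreted antagonists, of 25702 genes in the table. They were chosen by name, as MSTN, GDF11, INHBA, INHBB, FST, FSTL1, FSTL3, ACVR2A, ACVR2B and ACVR1B, with the large difference in MSTN between siGLI1 and siNT2 already known. Because that contrast was used in choosing them, their differences in it are given as a description, with intervals but without p-values. Members are called below where a fit over all genes gave an adjusted p under 0.05, and those calls are description too. The RNA came from RMS13, an established human rhabdomyosarcoma line whose GLI1 gene is known to be amplified. One group of 3 libraries came from cells given an siRNA against GLI1, a transcription factor of the Hedgehog pathway (siGLI1), and the other group of 3 from cells given a non-targeting siRNA (siNT2). All were grown in serum and taken at 72 h. With 1 cell line and 1 siRNA label per group, loss of GLI1 and other effects of that siRNA cannot be told apart. The labels do not say that the replicates were separate cultures, so a p-value here covers only the variation among the 6 libraries, and that may be technical.

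Myostatin, made by skeletal muscle, restrains muscle growth, and GDF11 is its closest relative. Both, like the activins, are secreted as precursors that proteases cut, and the released dimer binds a type II receptor (ACVR2A or ACVR2B), which then engages a type I receptor such as ACVR1B. The type I receptor phosphorylates SMAD2 and SMAD3. Follistatin (FST) and FSTL3 bind the ligands outside the cell and block them, whereas FSTL1, despite its name, is a more distant secreted glycoprotein.

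Recovered reads ranged from 13673977 to 18947614 per library. GLI1 was at 579.9 to 1274.1 in the siGLI1 libraries and at 11962.5 to 17836.9 in the siNT2 libraries, so GLI1 was lower in every library labelled siGLI1 (log2 fold change -3.996, adjusted p = 0.000425, limma). The muscle lineage list had 7 of 8 markers at a mean of 10 or more, with PAX7 at 0 or near it, and a summed level of 45909 to 62676 in siNT2 and 54341 to 77258 in siGLI1. Single markers of that list stood apart where the sums did not. The groups did not overlap in 36.2% of all 15622 genes tested, so nothing is read from how many markers stood apart. DES, the muscle intermediate filament gene, was at 3499 to 4697 in siNT2 and 7073 to 10478 in siGLI1, CHRNA1, an acetylcholine receptor subunit gene, at 4092 to 4529 and 6610 to 6959, and NCAM1, an adhesion molecule gene, at 1971 to 2468 and 4224 to 5462, while MYOD1, MYOG, CDH15 and CHRND overlapped. Of the marker lists for other cell types, epithelial, blood and endothelial lists each had 1 marker at a mean of 10 or more, the adipocyte list 0 of 3 and the fibroblast list 2 of 4. Endothelial markers summed to 22.3 to 32.9 in siNT2 and to 98.1 to 103.7 in siGLI1, through PECAM1, while CDH5, VWF and KDR were under 10 in every library. The epithelial sum, mostly EPCAM, was 52.7 to 60.6 in siNT2 and 28.6 to 41.0 in siGLI1, and the blood sum, mostly CD14, was 15.2 to 16.5 and 20.5 to 44.4. Fibroblast sums overlapped (266.7 to 434.6 and 241.0 to 370.4), and the adipocyte sum was 1.01 to 3.99 and 5.11 to 8.89. CDH1, KRT5, PTPRC and HBB, which define epithelial and blood cells, were at 0 or near it, and a part of these markers in the results was not tested.

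MSTN was the ligand with the large difference. Normalised reads for MSTN numbered 590.8, 284.0 and 775.1 in siNT2 replicates 1 to 3, against 6104.9, 5346.8 and 2856.3 in siGLI1 replicates 1 to 3. The groups did not overlap: the lowest siGLI1 library was well above the highest siNT2 library, and within siGLI1 the third replicate was the lowest. The mean went from 549.9 ± 248 to 4769 ± 1700 (SD over 3 libraries each). On the log2(value + 1) scale, a limma fit over all genes put siGLI1 above siNT2 by 3.16 (standard error 0.41, 95% interval 2.21 to 4.11); below, every log2 fold change is siGLI1 minus siNT2 on that scale, and a gene is called at an adjusted p under 0.05. When each library was left out in turn, the value ranged from 2.74 to 3.49. DES, CHRNA1 and NCAM1 of the muscle list were also higher in all siGLI1 libraries, whereas MYOD1, MYOG, CDH15 and CHRND of that list overlapped between groups. A part of the muscle markers in the MSTN difference was not tested. In bulk RNA, a change in the number of cells that express MSTN and a change in its RNA per cell cannot be told apart.

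The 250 bases before the RefSeq start of MSTN (GRCh38.p14, chr2:190062730-190062979, minus strand) are shown because MSTN had the largest difference among the members. Capitals mark E-boxes (CANNTG), the motif of myogenic bHLH factors, a SMAD box (CAGAC) and TATA boxes (TATAAA), searched on both strands, with no overlap between the marked motifs.

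MSTN: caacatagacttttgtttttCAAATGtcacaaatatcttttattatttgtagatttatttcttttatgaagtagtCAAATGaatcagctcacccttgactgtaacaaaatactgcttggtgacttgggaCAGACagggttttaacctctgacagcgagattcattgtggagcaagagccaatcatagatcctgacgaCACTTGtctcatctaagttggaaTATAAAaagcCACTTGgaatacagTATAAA

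This stretch held 4 E-boxes, and 3.4% of the 35116 promoters of the same length in the RefSeq table held 4 or more, where 61.8% held at least 1. Among the other members, FSTL3 had 2, FST and ACVR1B had 1 each, and the remaining 6 had 0. The TATA box letters occurred 2 times before MSTN, at bases 30 to 25 and 6 to 1 before the start. They occurred 1 time before GDF11, INHBA and FSTL3, and 2.1% of promoters held 2 or more. The MSTN window was 35.2% G and C, where the median over all promoters was 58.0%, and the shares were not matched for composition. The SMAD box occurred 1 time before MSTN and 0 times before the others, where 38.0% of promoters held it. The GLI consensus GACCACCCA was in 0 of the 10 windows and in 0.2% of all promoters, and the MEF2 box was in 0 of the 10 and in 2.4%. These are matches of letters in a short window.

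GDF11 was slightly lower in siGLI1 cells. It was at 613.8, 544.6 and 578.9 in siNT2 and at 476.3, 449.8 and 490.9 in siGLI1. The groups lay close together without overlapping. The log2 fold change was -0.29 (standard error 0.13, 95% interval -0.59 to 0.01), and the gene was not called. Its annotated exons overlap those of SARNP on the opposite strand, which was at 285.9 ± 55.2 and 278.6 ± 64.1 (SD, n = 3 per group), and the counting is not stated to use strand, so reads of the pair may be mixed. GDF11 and ACVR1B lie on chromosome 12, which also carries GLI1, and in this fit both intervals held 0.

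The 2 activin beta subunit genes among the members, INHBA and INHBB, were at the limit of detection in every library. INHBA, the beta A subunit, had 0, 0 and 2 reads in siNT2 and 4, 1 and 1 in siGLI1, and INHBB, the beta B subunit, had 0, 1 and 0 against 0, 1 and 1. A count of 0 allows up to 3 reads, or 2.39 to 3.29 in normalised units, an allowance for counting error only. All but 1 of these 12 values were within that allowance, so no fold change is given and both genes stayed out of the fit. Other beta subunit genes, which are not members, were above it. INHBC had a mean of 54.4 in siNT2 and 36.6 in siGLI1, and INHBE one of 658.2 and 1989.6.

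The 2 type II receptors lay on opposite sides of no change, and of them ACVR2A was called. ACVR2A was at 464.5, 393.5 and 483.2 in siNT2 and at 753.8, 735.1 and 603.5 in siGLI1. Every siGLI1 library was above every siNT2 library, and the lowest library of each group was the same one as for MSTN. The log2 fold change was 0.64 (standard error 0.16, 95% interval 0.28 to 1.0), and ACVR2A was called higher. Leaving out a single library ended that call in 5 of 6 cases: the value was 0.67, 0.55 and 0.70 without siNT2 replicates 1, 2 and 3, and 0.58 and 0.60 without siGLI1 replicates 1 and 2. Its exons overlap those of ORC4 on the other strand, a gene that had a log2 fold change of 0.38 and was not called (adjusted p = 0.136, limma).

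ACVR2B, the receptor that myostatin is known to prefer, was at 1585.6, 1229.2 and 1677.8 in siNT2 and at 1156.6, 948.7 and 679.5 in siGLI1. The groups did not overlap, though siNT2 replicate 2 came close to siGLI1 replicate 1. The log2 fold change was -0.71 (standard error 0.22, 95% interval -1.22 to -0.20). It was not called over all genes, and was called lower without siGLI1 replicate 1, where it was -0.89. The antisense transcript ACVR2B-AS1 was at 40.64 ± 2.83 and 37.3 ± 1.02 (SD, n = 3 per group).

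The upstream windows of this pair, shown because the paralogs differed in direction, differ in base composition. They are chr2:147844779-147845028 for ACVR2A and chr3:38453640-38453889 for ACVR2B, both plus strand, GRCh38.p14, from RefSeq, and neither held any of the 5 motifs searched.

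ACVR2A: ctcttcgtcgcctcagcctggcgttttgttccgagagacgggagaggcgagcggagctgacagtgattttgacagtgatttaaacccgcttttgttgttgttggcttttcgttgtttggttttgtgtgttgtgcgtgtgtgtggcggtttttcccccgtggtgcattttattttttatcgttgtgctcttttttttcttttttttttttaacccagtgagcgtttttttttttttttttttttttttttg

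ACVR2B: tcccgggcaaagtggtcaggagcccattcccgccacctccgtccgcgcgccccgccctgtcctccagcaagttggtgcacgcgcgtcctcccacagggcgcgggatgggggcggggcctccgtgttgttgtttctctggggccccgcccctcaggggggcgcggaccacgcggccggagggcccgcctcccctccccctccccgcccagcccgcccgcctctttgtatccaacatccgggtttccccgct

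The ACVR2A window was 40.8% G and C with 14 CpG dinucleotides, and the ACVR2B window was 74.0% with 26, where the medians over all promoters were 58.0% and 11.

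ACVR1B, the type I receptor also called ALK4, was nearly level. It was at 1150.8, 1174.5 and 1055.8 in siNT2 and at 1067.0, 1088.8 and 1185.2 in siGLI1, and the groups overlapped. The log2 fold change was -0.02 (95% interval -0.30 to 0.27). Its sign turned in 4 of the 18 alternative fits.

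Among the antagonists, none was called. FST was at 295.4, 378.3 and 306.2 in siNT2 and at 484.9, 485.6 and 428.6 in siGLI1, with no overlap. The log2 fold change was 0.52 (standard error 0.15, 95% interval 0.16 to 0.88). It was not called over all genes, and was called higher without siGLI1 replicate 3, where it was 0.58. FSTL3, which also binds activins and myostatin, was at 173.5, 296.1 and 191.4 against 209.5, 332.3 and 457.3, and the groups overlapped. Its log2 fold change of 0.56 had a 95% interval of -0.18 to 1.30. FSTL1 was at 2992.3, 2679.5 and 4012.7 against 2868.3, 2999.5 and 2765.4, overlapping groups with a log2 fold change of -0.15 (95% interval -0.53 to 0.24). Without siNT2 replicate 3, its highest library, the FSTL1 value was 0.02.

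**Figure D1:**
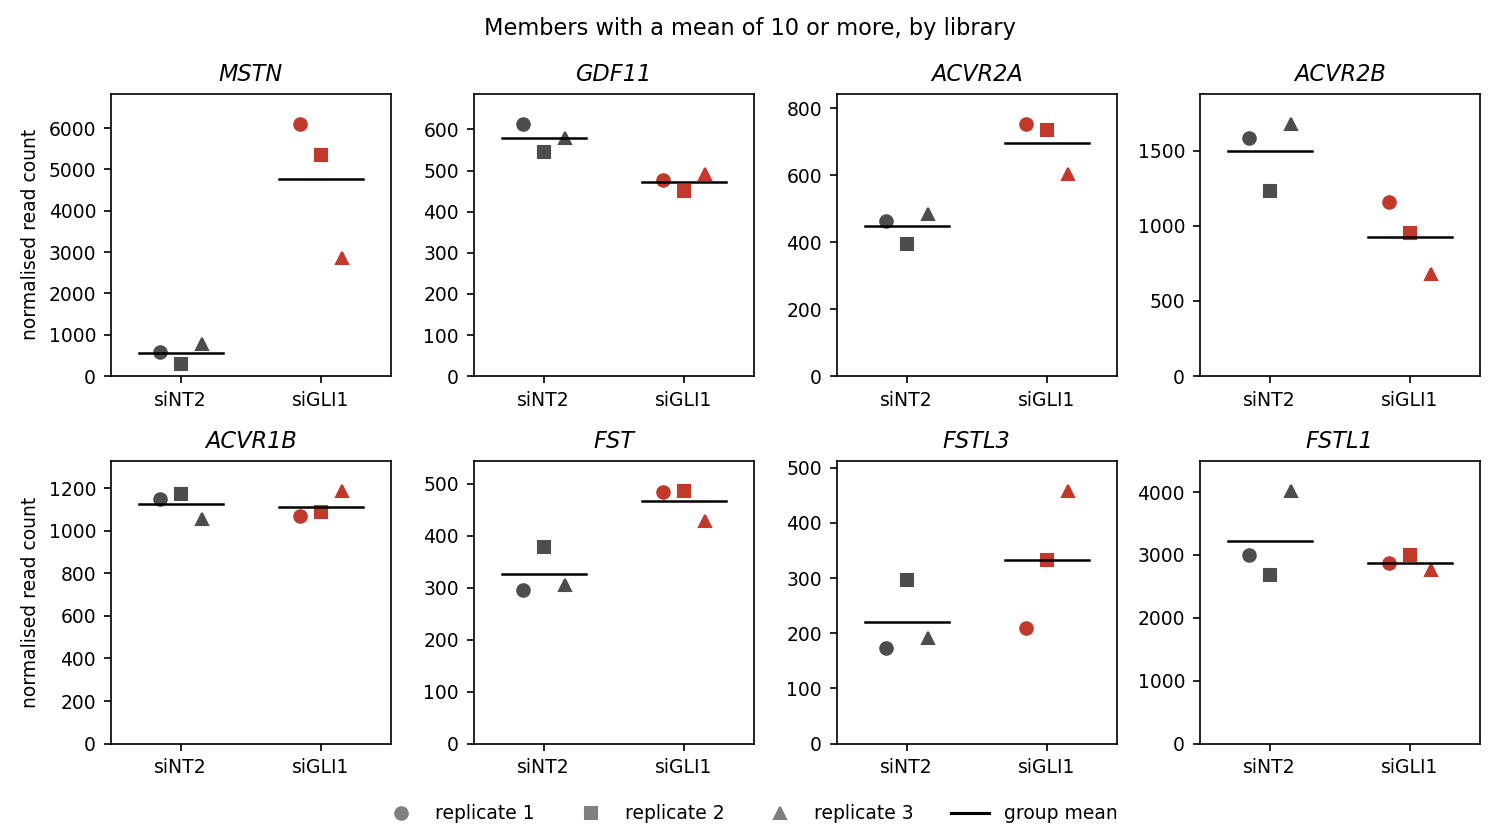
Normalised read counts (y axes, from 0) of the 8 members with a mean of 10 or more in the siNT2 and siGLI1 groups (x axes), 1 point per library with a symbol for each replicate number and a line at the group mean. Every siGLI1 point lay above every siNT2 point for MSTN, ACVR2A and FST and below for GDF11 and ACVR2B, and the groups overlapped in ACVR1B, FSTL3 and FSTL1.

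Of the 8 members tested, 2 were called higher (MSTN and ACVR2A) and 0 lower at an adjusted p under 0.05 with limma, and ACVR2B, FST and GDF11 also had groups that did not overlap. Over all 15622 genes tested, 15.2% were called, 7.21% higher and 8.0% lower, and the groups did not overlap in 36.2%. The median log2 fold change was 0.25 over the 8 members and -0.01 over all tested genes. edgeR called the same count of members, 2, beside 15.2% of all genes. DESeq2 called 4 members, adding FST and ACVR2B, beside 21.0% of all genes. Since the members were chosen with this contrast known, nothing is read from these shares.

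**Figure D2:**
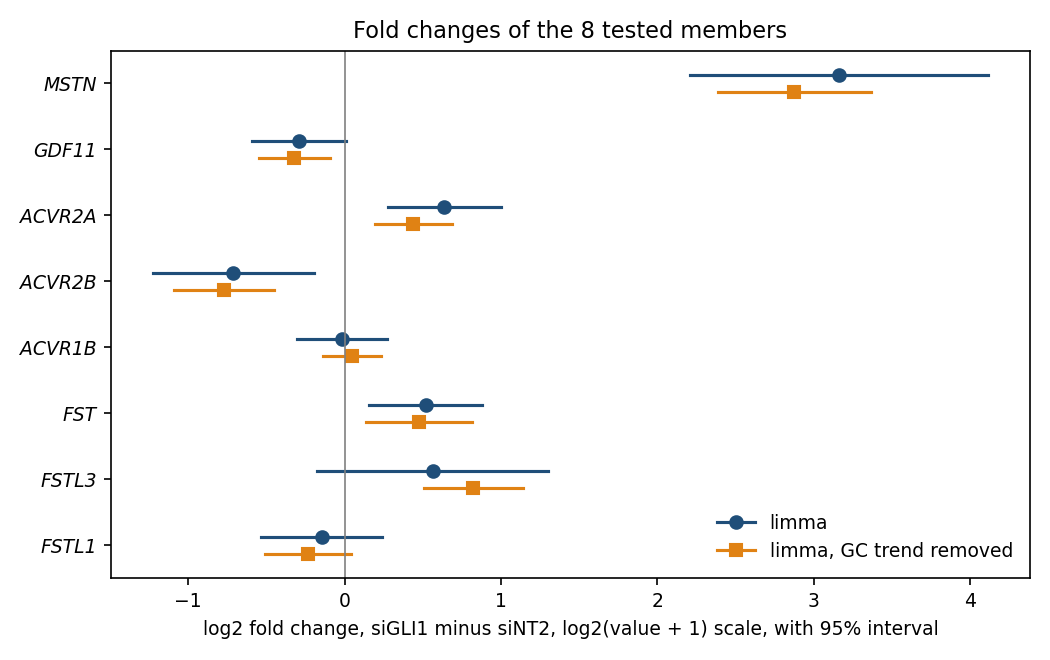
Log2 fold changes, siGLI1 minus siNT2 (x axis, log2(value + 1) scale), of the 8 tested members (y axis), with 95% intervals from limma, as deposited (circles) and with each library's GC trend removed (squares). MSTN stands at 3.16 and 2.87, ACVR2A and ACVR2B lie on opposite sides of 0, and the interval of FSTL3 crosses 0 only in the fit as deposited.

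The spread within groups went with base composition. Across genes, a library's deviation from its group mean had a Spearman correlation with transcript GC content of 0.70 in siNT2 replicate 2 and 0.75 in siGLI1 replicate 3, and of -0.70 to -0.31 in the other 4 libraries, and the log2 fold change had one of -0.29. Those 2 libraries were the lowest of their groups for 4 of the 8 tested members, namely MSTN, ACVR2A, ACVR2B and FSTL1, whose transcripts have a GC content of 33.8% to 45.7%. They were the highest of their groups for FSTL3 and ACVR1B, at 64.4% and 52.9%. With the GC trend of each library removed, 6 of the 8 members were called, beside 31.9% of all genes. In that fit the log2 fold changes were 2.87 for MSTN, 0.44 for ACVR2A, -0.77 for ACVR2B, 0.48 for FST, 0.82 for FSTL3 and -0.32 for GDF11. ACVR1B (0.05) and FSTL1 (-0.23) were not called there. MSTN and ACVR2A were smaller by this fit and ACVR2B and FSTL3 larger.

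Levels were then set side by side per kilobase of merged exons. In siNT2 cells FSTL1 was the highest member (543.2 ± 117 normalised reads per kilobase), followed by ACVR1B (202.8 ± 11.3), MSTN (194.9 ± 87.9), ACVR2B (126.7 ± 20.0), FST (117.4 ± 16.2), FSTL3 (81.2 ± 24.4), ACVR2A (78.0 ± 8.26) and GDF11 (66.9 ± 4.00), as mean ± SD with n = 3. INHBA and INHBB were near 0. The library values of neighbours in the order from ACVR1B down to GDF11 overlapped as ranges. Within each siNT2 library, FST was above FSTL3 and ACVR2A above GDF11. The other neighbours from ACVR1B down changed order between libraries. No difference between members was tested. In siGLI1 cells MSTN was first, at 1690 ± 602 (SD, n = 3) normalised reads per kilobase, ahead of FSTL1 at 484.2 ± 19.7, followed by ACVR1B, FST, FSTL3, ACVR2A, ACVR2B and GDF11. There only FST, FSTL3 and ACVR2A overlapped with a neighbour in that order. With the longest transcript in place of merged exons, ACVR1B was at 247.0 in siNT2, and FST (128.7) passed ACVR2B (126.7).

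The balance between paralogs and between ligand and antagonist differed with the group. ACVR2A made up 37.7%, 39.8% and 37.3% of the summed type II receptor level per kilobase in siNT2 and 57.3%, 61.5% and 64.7% in siGLI1. The minor receptor transcript in control cells was therefore the major one in every siGLI1 library, on this length scale. In normalised reads not divided by length, ACVR2B stayed above ACVR2A in every library of each group. The sum of both receptors overlapped between groups, at 204.7 ± 28.3 and 200.2 ± 34.1 (SD, n = 3 per group) normalised reads per kilobase. MSTN per kilobase was 1.97, 0.74 and 2.50 times FST per kilobase in siNT2 and 12.4, 10.9 and 6.57 times in siGLI1. Against GDF11, the ratio was 1.6 to 4.11 in siNT2 and 17.9 to 39.3 in siGLI1. FST and FSTL3 together went from 170.0, 245.0 and 180.5 to 251.4, 296.9 and 322.4 normalised reads per kilobase, a smaller difference than that of MSTN alone. Shares, sums and ratios depend on the annotated lengths, whereas the fold between groups of a ratio does not.

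**Figure D3:**
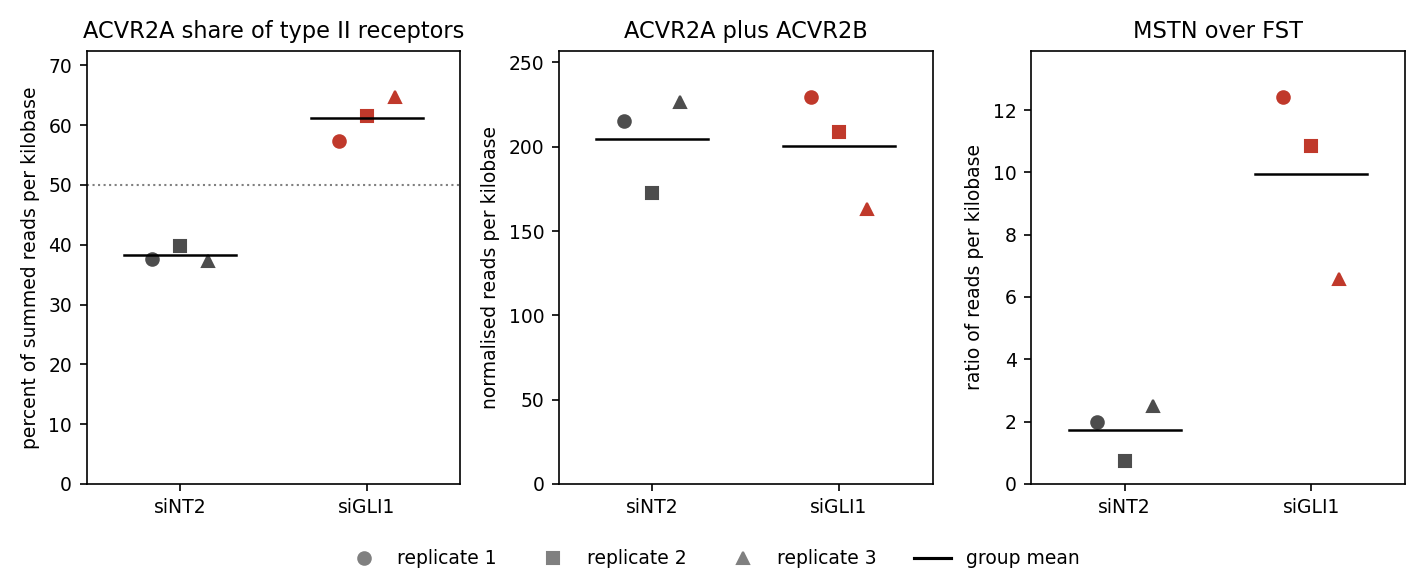
Per library, the percent of ACVR2A in the summed ACVR2A and ACVR2B level per kilobase (left, dotted line at 50), that sum in normalised reads per kilobase (middle) and the ratio of MSTN to FST per kilobase (right), for siNT2 and siGLI1, with lines at group means. The ACVR2A share was 37.3% to 39.8% in siNT2 and 57.3% to 64.7% in siGLI1, while the sums overlapped.

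Other genes of the pathway were read from 4 lists, which held 79 genes, of which 66 were tested: 13 were higher, 6 lower and 47 not called, where 7.21% of all tested genes were higher and 8.0% lower. The lists were chosen with earlier results known, so nothing is read from their shares. Of 16 tested ligands, processing proteases and extracellular partners, 3 rose, 3 fell and 10 were not called (15.2% of all genes were called), with a median log2 fold change of -0.39 against -0.01 over all genes. TLL2, a tolloid-like protease of the group that cuts the myostatin propeptide, went from 258.3 ± 44.3 to 767.3 ± 48.8 (SD, 3 libraries each), with a log2 fold change of 1.58 (adjusted p = 0.00148). INHBE, the gene of another inhibin beta subunit, went from 658.2 ± 78.9 to 1990 ± 253 (SD, 3 libraries each). Its log2 fold change was 1.59 (adjusted p = 0.00127), and in each group it was far above INHBA and INHBB in reads. LEFTY1, a secreted inhibitor of NODAL signalling, went from 457.6 ± 68.5 to 53.3 ± 7.46 (SD, 3 libraries each), with a log2 fold change of -3.08 (adjusted p = 0.000277). These 3 calls held whichever library was left out. PCSK6, a proprotein convertase, rose by 1.26 (adjusted p = 0.0153), and FSTL4, a follistatin-like gene, fell by 0.76 (adjusted p = 0.0179). The PCSK6 call was lost without siGLI1 replicate 2 (1.17), and the FSTL4 call without siNT2 replicates 1 (-0.82) or 3 (-0.71) or siGLI1 replicate 2 (-0.72). BMP1, the tolloid relative of TLL2, is named after its value was seen. It fell by 0.95 (adjusted p = 0.0494), a call kept only without siGLI1 replicate 3 (-1.18) and otherwise lost, at -1.08 to -0.74. FURIN (-0.05) and the latency protein gene LTBP3 (0.08) were not called.

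Of 27 other receptors and SMAD relay genes, 5 rose, 2 fell and 20 were not called, beside 15.2% called over all genes (median 0.22 against -0.01). ACVR1C, which encodes the type I receptor ALK7, went from 48.4 ± 11.6 to 154.3 ± 49.2 (SD, 3 libraries each), or 1.62 on the log2 scale (adjusted p = 0.0124). ACVR1, which encodes the type I receptor ALK2, rose by 1.0 (adjusted p = 0.0112). BAMBI, a decoy receptor that dampens the pathway, fell by 1.11 (adjusted p = 0.0119). All 3 calls were lost without siNT2 replicate 1 (1.62, 0.93 and -1.07) or siGLI1 replicate 2 (1.54, 0.99 and -1.19), in the order ACVR1C, ACVR1 and BAMBI. SMAD7, an inhibitory SMAD, rose by 1.05 (adjusted p = 0.0264, limma). PMEPA1, a feedback inhibitor that binds SMAD2 and SMAD3, rose by 0.51 (adjusted p = 0.028, limma). SMAD6, the other inhibitory SMAD, went the other way and is named after its value was seen. Its log2 fold change was -0.88 (adjusted p = 0.0437, limma), a call kept only without siGLI1 replicate 3 (-1.05) and otherwise lost. The corepressor genes SKI (0.18) and TGIF2 (-0.08) were not called. The SMAD7 call was lost without siNT2 replicates 1 (0.998) or 2 (0.88) or siGLI1 replicates 1 (1.08) or 2 (0.94). The PMEPA1 call was kept only without siGLI1 replicate 3 (0.51) and otherwise lost, at 0.46 to 0.54.

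SMAD7 and PMEPA1 also belong to a list of genes that SMAD2 and SMAD3 are known to induce or repress, where 4 of 14 tested rose, 1 fell and 9 were not called, beside 7.21% higher and 8.0% lower over all genes (median 0.50 against -0.01). BHLHE40, a bHLH repressor gene, went from 203.2 ± 21.2 to 434.3 ± 38.6 (SD, 3 libraries each), or 1.09 on the log2 scale (adjusted p = 0.00453), and was called whichever library was left out. LTBP2, a microfibril protein gene, rose by 1.01 (adjusted p = 0.0231). Its call did not hold without siNT2 replicates 1 (1.11), 2 (0.89) or 3 (1.03) or siGLI1 replicate 2 (0.94). The gene that fell was ID1, better known as a BMP target and named after its value was seen, by 0.91 (adjusted p = 0.0369). Its call was kept only without siGLI1 replicate 3 (-1.12) and otherwise lost, at -0.996 to -0.67. SNAI2 (0.68) and CDKN1A (-0.40) were not called.

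Of 13 tested genes for factors known to act on the myostatin gene, 3 rose, 0 fell and 10 were not called, beside 7.21% higher and 8.0% lower over all genes (median 0.24 against -0.01). NR3C1, the glucocorticoid receptor, went from 649.5 ± 156 to 1608 ± 449 (SD, 3 libraries each), with a log2 fold change of 1.30 (adjusted p = 0.0153). TCF7L2, a WNT pathway factor, rose by 0.65 (adjusted p = 0.0162) and MEF2C by 0.85 (adjusted p = 0.0394). The first 2 calls were lost without siNT2 replicate 1 (1.31 and 0.62) or siGLI1 replicate 2 (1.29 and 0.58), and that of MEF2C without siNT2 replicates 1 (0.81) or 2 (0.74) or siGLI1 replicates 1 (0.71) or 2 (0.80). MYOD1 (-0.04) and MYOG (0.24), the most abundant of the list, were not called.

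**Figure D4:**
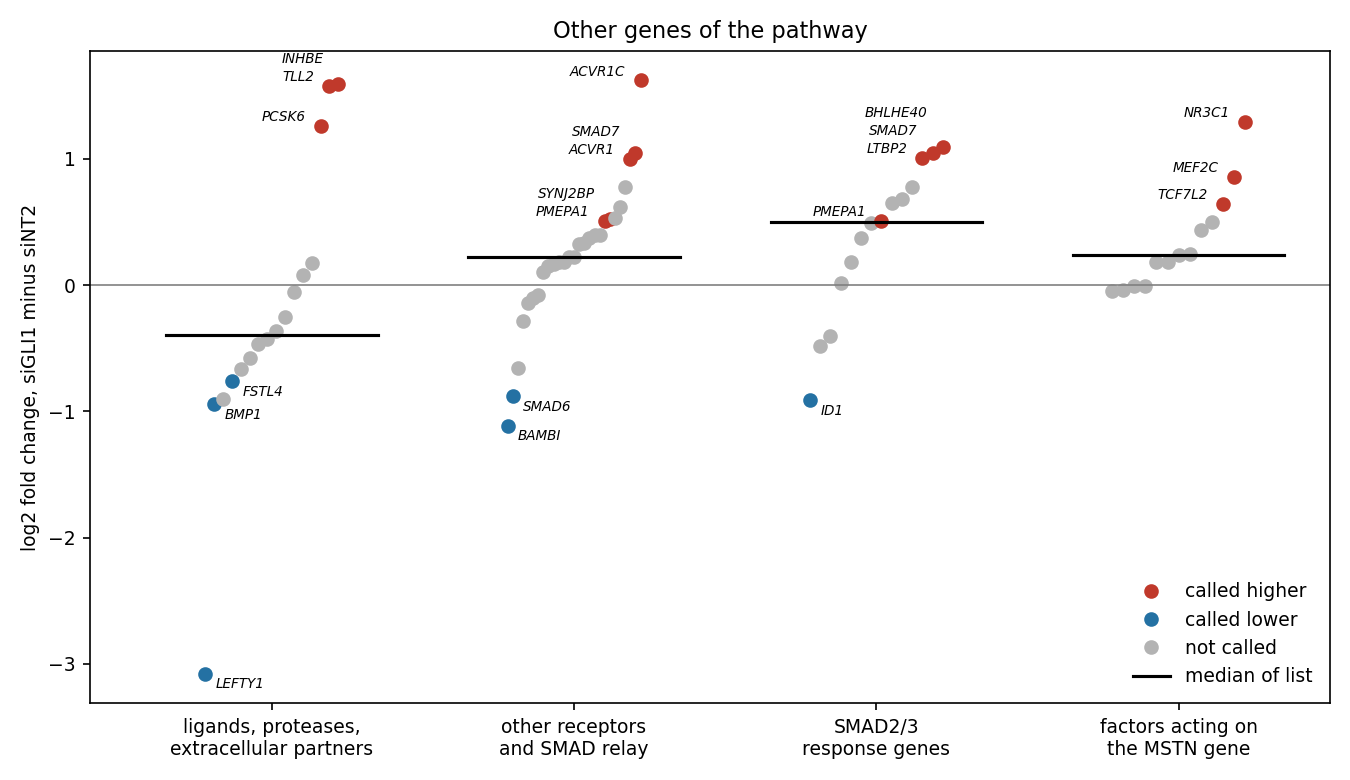
Log2 fold changes, siGLI1 minus siNT2 (y axis), of the tested genes in 4 pathway lists (x axis), 1 point per gene, coloured by its call at an adjusted p under 0.05 (limma), with a line at each list's median. SMAD7, PMEPA1, SKIL and SMAD3 stand in 2 lists each. LEFTY1 (-3.08) lies lowest and ACVR1C (1.62) highest.

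The 5 genes whose profile over the 6 libraries was most like that of MSTN, among 12650 genes with a mean of 50 or more, were ELMOD1, CORO1C, LRIG1, DUSP3 and STOM, with Pearson r on the log2(value + 1) scale of 0.998 to 0.999. These values share their libraries, groups and GC-related spread, and are given as a description. Their own fold changes were smaller than that of MSTN, at 1.53, 1.29, 0.88, 0.74 and 0.66 on the log2 scale.

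The heptamer GCACCTC was looked for because earlier results of these data had pointed to it. Of tested genes that carried it in their 3′ UTR, 18.8% were called lower in siGLI1 cells, against 7.1% of the rest. That is a description with no test, and the genes were not matched for 3′ UTR length or GC content. Across genes, the log2 fold change had a Spearman correlation of -0.29 with transcript GC content. Since the heptamer came from these same data, nothing is read from the 2 shares. Of the members, 2 carried 1 copy each, and the sites are shown because the values of the pair differ. Both lie in the 3′ UTR of a GENCODE 29 transcript on the plus strand of GRCh38, at chr3:38484448-38484474 for ACVR2B and chr12:51996812-51996838 for ACVR1B, with the heptamer in capitals.

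ACVR2B: ccagagtcctGCACCTCtggttccgcc

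ACVR1B: agtgctacctGCACCTCtggattctgg

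The ACVR2B site began at base 1126 of a 3′ UTR of 9810 bases and the ACVR1B site at base 2712 of 2968. The heptamer was in 8.4% of the 3′ UTRs of tested genes, in 12.9% of those of 2000 to 4000 bases and in 28.0% of those of 8000 to 12000 bases. ACVR2B had a log2 fold change of -0.71 and ACVR1B one of -0.02, and neither gene was called. The sequence of the siRNA is not given in the sources used here, and a part of the heptamer in the ACVR2B difference was not tested.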

How the data were processed

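The labels' protocols describe mRNA isolated with a Qiagen RNeasy kit, DNase treatment and an Illumina mRNA library kit. The submitters' processing notes list the genome build hg19 and, with no order, DESeq2 2.11.40.6, Bowtie2 2.3.3.1, Subread 1.6.4, featureCounts, bcl2fastq and Trim Galore 0.4.5. Neither strand use nor the annotation is given in the sources used here. What the authors deposited is signal: reads per gene over a library's size factor. All values (100.0%) were whole multiples of 1 read within 0.01, so whole reads were recovered.

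Symbols came from a RefSeq table (GRCh38.p14) for 23696 of 25702 IDs (92.2%). All 10 members matched, and all 10 had a promoter there. Lengths, GC content (92.4% of tested genes) and 3′ UTRs came from GENCODE 29. Sequences and their coordinates are from GRCh38, not hg19.

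Genes with a mean value of 10 or more were tested with limma 3.58.1 (trend) in R 4.3.3 on log2(value + 1), group as the only term, Benjamini-Hochberg over all 15622 genes, threshold 0.05. edgeR 4.0.16 and DESeq2 1.42.0 ran on the recovered reads. The GC trend was removed per library by lowess (span 0.3). The fit was tested on simulated counts without the GC-related spread of these libraries, so that test does not cover such spread. No library pair within a group agreed within sampling noise.

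Members and lists were chosen with earlier results of these data known. Named pathway genes are up to 5 called genes per list with the smallest p and up to 2 uncalled with the highest mean. Others are said to be named after their values were seen. For 1 gene of the pathway lists, values are not reported here, and the counts leave it out.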

Additional observations from a re-analysis of the deposited data

How the results depend on the processing

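The direction of MSTN, GDF11, FST, FSTL3, ACVR2A, ACVR2B and GLI1 was the same in all 18 alternatives run. FSTL1 ranged from -0.269 to 0.0225 with 1 library left out, turning without siNT2 replicate 3. ACVR1B turned to 0.0491 with the GC trend removed (with or without a replicate block) and ranged from -0.0635 to 0.0133 with 1 library left out, above 0 without siNT2 replicate 2 or siGLI1 replicate 1. GLI1 stayed called, at -4.27 to -3.70 with 1 library left out. The cause of these turns was not tested. Of 15622 genes tested, the 2376 called became 8274 with array weights (gene-by-gene method, since the default stopped before convergence). With the GC trend removed they became 4982. With each of those settings 6 of 8 members were called. DESeq2 called 4 members, beside 3279 genes. Leaving out siNT2 replicate 2 and siGLI1 replicate 3 together, an alternative chosen after seeing the data, gave 4592 genes and 4 members. With 1 library left out, the count was 641 to 3267 over all genes, 1 to 3 for members and 4 to 21 for pathway genes (19 with all libraries). Array weights called 42 of 66 tested pathway genes, and removal of the GC trend 29.

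The labels give same-numbered libraries of both groups a shared ID stem and do not say what it marks. Deviations of same-numbered libraries correlated at 0.49, -0.11 and -0.61, and at 0.34, 0.02 and -0.39 with the GC trend removed, so pairing by number was not established. A replicate block gave 970 genes, 1 member and 6 pathway genes: MSTN stayed called and ACVR2A, at 0.64, did not. With the GC trend removed too, it gave 3877 genes and 4 members. Not every library correlated best with its own number. INHBA and INHBB had too few reads for a fold change.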

Other observations

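The genes beside MSTN on chromosome 2 did not share its difference; they were looked at after the MSTN values were seen. AKAP19, whose annotated span crosses MSTN on the other strand, was at 322.9 ± 63.0 in siNT2 and 335.3 ± 36.4 in siGLI1 (SD, 3 libraries each), or 0.07 on the log2 scale. The next protein-coding genes on either side were HIBCH, a valine breakdown enzyme gene, and PMS1, a mismatch repair gene, at -0.29 and -0.34. None of the 3 was called in the fit as deposited (adjusted p = 0.836, 0.173 and 0.216 for AKAP19, HIBCH and PMS1, limma). With the GC trend removed, PMS1 was called lower, at -0.57 (adjusted p = 0.00534, limma), and AKAP19 (-0.14) and HIBCH (-0.41) were not called.

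Within the siGLI1 group, the library with the most GLI1 left (1274.1, replicate 3) had the least MSTN (2856.3), and the one with the least GLI1 (579.9, replicate 1) had the most (6104.9). The same libraries stood at the ends of the GC trend (Spearman 0.75 and -0.70), and with 3 libraries neither relation was tested.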
